A study of Homo sapiens with 17 samples.

Results

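Enhancers, the distal elements that raise transcription of a gene, carry H3K4me1 when marked and H3K27ac when active, and H3K27ac also lies at active promoters. Both marks are placed and removed by enzymes, and the genes of 9 such proteins are described here as targets of the same marks in H1 cells, a human pluripotent stem cell line. KMT2C and KMT2D add H3K4me1 as the catalytic subunits of the COMPASS-like complexes of enhancers. EP300 and CREBBP are paralogous acetyltransferases that place H3K27ac. KDM1A removes mono- and dimethylation of H3K4 and KDM5B removes trimethylation, while HDAC1 and HDAC2 are deacetylases of the CoREST, NuRD and SIN3 complexes. SMARCA4 (BRG1) is an ATPase of the BAF remodelling complex whose bromodomain reads acetylated lysine. The 9 genes were listed by name, out of 20037 protein-coding genes of the RefSeq annotation, and each was read from 10 kb upstream to 10 kb downstream in every list. These windows held 1303 of the 1777701 summits deposited.

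The study asked what the nuclear matrix protein HNRNPU does in human pluripotent cells. CUT&Tag, in which an antibody directs the Tn5 transposase to cut chromatin beside its target, was done with 4 antibodies in 17 libraries. Virus carried either of a pair of shRNAs directed at HNRNPU, named shHNRNPU#1 and shHNRNPU#2, or a luciferase shRNA as control, named shLUC, and infected cells were selected with puromycin. H3K4me1 and H3K27ac were each profiled in 2 repeats of shHNRNPU#1, 2 of shHNRNPU#2 and 2 of shLUC. HNRNPU was profiled in 2 libraries of H1 cells without virus, and POLIIS2P, by its name RNA polymerase II phosphorylated at serine 2 of its tail, in 1 shHNRNPU#1 and 2 shLUC libraries. Nothing in the labels says whether repeats were separate cultures, so their spread may be technical. All values come from 1 cell line, and chromatin shows where marks lie, not how much of each enzyme a cell makes.

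Each list gave 1 summit per called peak, the base of highest signal, with a score that read as −log10 of a p-value or q-value. A summit is reported here by its percentile, its rank by score within its own list (tied scores share their mean rank), so that 100 is the strongest of its library, and 0 is written where a window or site has none. Read depth was unknown. The shHNRNPU lists held 147145 to 214333 H3K4me1 summits and 40487 to 85142 H3K27ac summits. The titles of the 4 shLUC histone libraries give H3K4me1 where the names of their peaks give H3K27ac, and the reverse. Peak names were followed, which gives shLUC 179137 and 181357 H3K4me1 and 62449 and 90914 H3K27ac summits, and the counts over the 9 genes and the main single sites are also given with the antibodies as labelled in the titles. The pluripotency genes POU5F1, SOX2 and NANOG held H3K27ac and H3K4me1 summits in every library of these antibodies, with the highest H3K27ac summit at 70.8 to 98.9. The window of HNRNPU itself had its highest H3K27ac summit at 86.1 to 95.8 in shHNRNPU and at 92.0 and 95.5 in shLUC cells, with overlapping groups. These lists do not measure HNRNPU RNA or protein, so they hold no check of the knockdown.

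The promoters that the results below turn on are shown first, from the RefSeq promoter table for GRCh38.p14. Each runs 5′ to 3′ along the gene from 250 bases before the start site to 30 bases from it on, 280 bases in all. Capitals mark any of 7 short motifs on either strand, namely the GC box GGGCGG, the CCAAT box CCAAT, the TATA box TATAAA, the ETS motif CCGGAAG, the NRF1 motif, a palindrome of 10 letters, the YY1 motif AAGATGGC and the E-box CACGTG. None of these motifs contains another, but neighbouring GC boxes can overlap. HDAC2 and EP300 are shown for the strongest H3K27ac start sites among the 9 genes. KDM1A is shown for the start site at which H3K27ac was lower in shHNRNPU cells. SMARCA4 is shown for an H3K27ac site at its second start, and HDAC1 and KMT2C for start sites without an H3K27ac summit.
HDAC2 (chr6:113971119-113971398, − strand): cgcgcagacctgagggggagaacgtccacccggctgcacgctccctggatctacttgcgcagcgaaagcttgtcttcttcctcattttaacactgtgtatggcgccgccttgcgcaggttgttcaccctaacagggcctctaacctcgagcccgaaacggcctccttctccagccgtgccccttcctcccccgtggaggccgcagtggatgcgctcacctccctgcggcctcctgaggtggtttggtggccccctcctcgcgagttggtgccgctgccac
EP300 (chr22:41092342-41092621, + strand): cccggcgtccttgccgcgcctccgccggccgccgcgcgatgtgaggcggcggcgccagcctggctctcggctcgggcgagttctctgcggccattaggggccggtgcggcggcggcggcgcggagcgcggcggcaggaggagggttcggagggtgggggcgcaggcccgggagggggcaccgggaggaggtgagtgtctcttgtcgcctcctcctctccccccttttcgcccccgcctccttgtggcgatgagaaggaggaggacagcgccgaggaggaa
KDM1A (chr1:23019218-23019497, + strand): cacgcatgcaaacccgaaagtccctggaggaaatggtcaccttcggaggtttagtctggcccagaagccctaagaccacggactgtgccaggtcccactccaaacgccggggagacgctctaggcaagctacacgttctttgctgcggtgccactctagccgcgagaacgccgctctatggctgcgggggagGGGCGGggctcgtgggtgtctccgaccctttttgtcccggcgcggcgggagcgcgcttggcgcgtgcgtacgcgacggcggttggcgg
SMARCA4, second start (chr19:10983874-10984153, + strand): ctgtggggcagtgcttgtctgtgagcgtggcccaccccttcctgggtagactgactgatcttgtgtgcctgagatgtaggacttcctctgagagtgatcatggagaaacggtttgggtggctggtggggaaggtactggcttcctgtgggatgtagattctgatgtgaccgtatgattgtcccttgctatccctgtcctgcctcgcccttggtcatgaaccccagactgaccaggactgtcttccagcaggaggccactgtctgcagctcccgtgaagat
HDAC1 (chr1:32291833-32292112, + strand): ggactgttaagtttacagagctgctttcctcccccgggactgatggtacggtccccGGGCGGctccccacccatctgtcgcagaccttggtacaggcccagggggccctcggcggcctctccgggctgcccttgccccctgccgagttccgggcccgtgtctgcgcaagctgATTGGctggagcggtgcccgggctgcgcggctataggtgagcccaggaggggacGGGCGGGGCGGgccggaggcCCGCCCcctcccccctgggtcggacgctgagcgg
KMT2C (chr7:152435974-152436253, − strand): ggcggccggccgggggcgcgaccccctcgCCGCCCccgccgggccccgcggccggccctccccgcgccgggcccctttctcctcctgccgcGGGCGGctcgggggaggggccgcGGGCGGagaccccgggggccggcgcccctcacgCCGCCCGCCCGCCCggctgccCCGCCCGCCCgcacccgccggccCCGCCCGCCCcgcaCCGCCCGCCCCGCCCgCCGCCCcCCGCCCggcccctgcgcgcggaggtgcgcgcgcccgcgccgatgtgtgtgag

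The 9 promoters were rich in CpG, with a median of 31 CpG dinucleotides and 69.6% G+C against 20 and 62.5% over 15860 promoters of protein-coding genes. The GC box was in 7 of the 9 and in 57.5% of all promoters. The 2 without it were HDAC2 and EP300, which held none of the 7 motifs in this window. KMT2C lay at the other end, with 90.4% G+C and 15 GC boxes, many of them overlapping. A CCAAT box was found in HDAC1 only (35.8% of all promoters), a YY1 motif in CREBBP only (3.17%) and an E-box in KMT2D only (8.62%). No member held the TATA box, the ETS motif or the NRF1 motif, against 9.46%, 13.9% and 1.72% of all promoters. The second SMARCA4 start, +23.09 kb from the first, had 5 CpG dinucleotides and 56.1% G+C and held no motif.

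H3K27ac divided the start sites into 3 kinds. Within 1 kb of the start, all 6 H3K27ac libraries had a summit at KMT2D, EP300, CREBBP, KDM1A and HDAC2, which is 5 of 9 genes against 25.1% of 15842 protein-coding genes with a start in the table. No library had one at KMT2C, KDM5B or HDAC1, against 37.2% of all genes, and SMARCA4 had one in 3 of 6. HDAC2 was the strongest, at 99.93, 99.85, 99.98 and 99.96 in the shHNRNPU libraries and 99.83 and 99.88 in shLUC. H3K4me1 was in all 6 libraries at the start of HDAC2 alone, where its summits lay at 80.4, 86.0, 84.7 and 84.3 in shHNRNPU and 95.9 and 80.3 in shLUC cells (39.1% of all genes had H3K4me1 in all 6). None of them had it at the starts of KMT2C, KMT2D, KDM5B and SMARCA4, against 24.7% of all genes. KDM5B had its nearest H3K27ac site at +1.32 kb, just outside the 1 kb limit, at 84.1 to 94.3 over the 6 libraries.

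**Figure D1:**
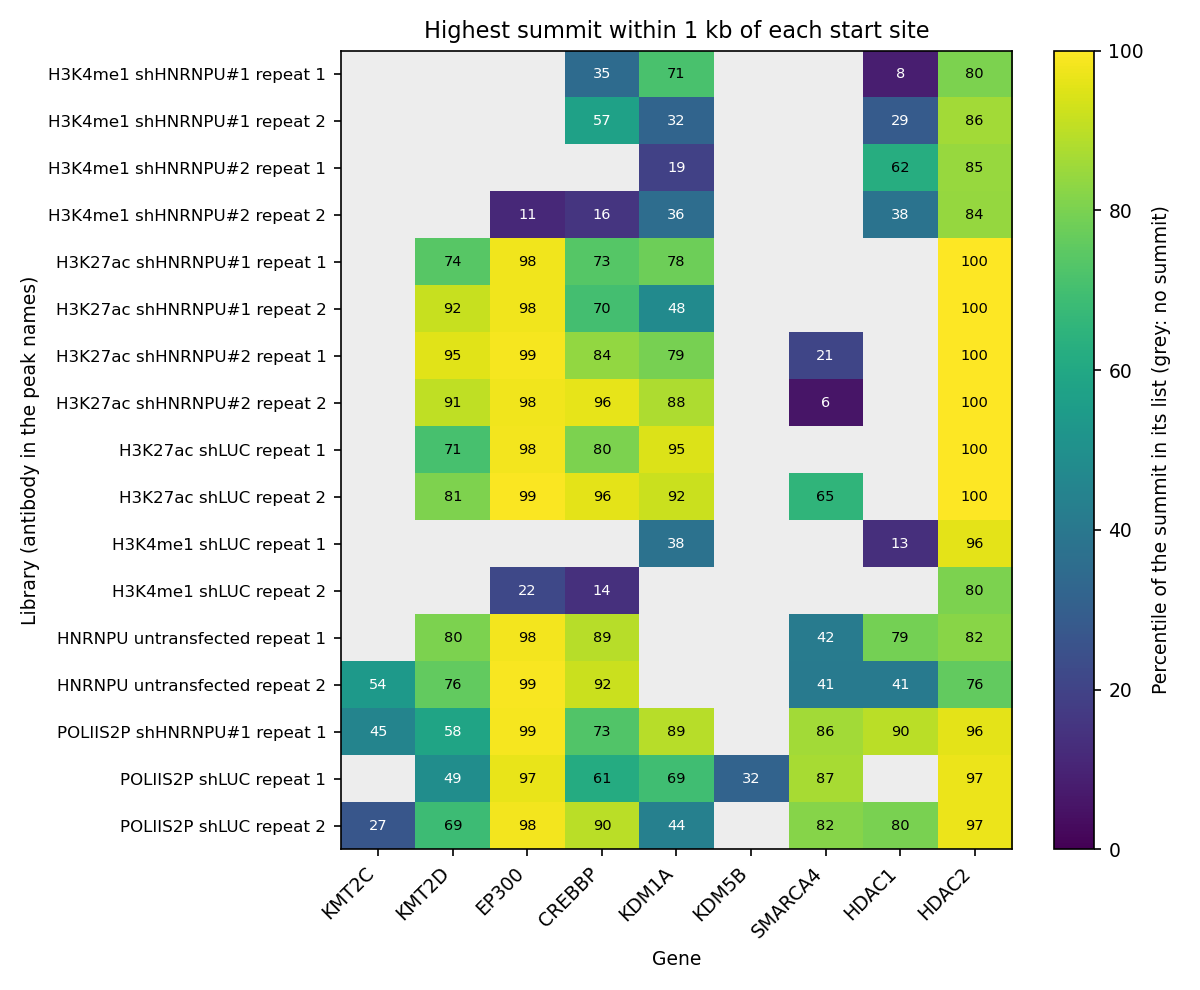
Highest summit within 1 kb of the start site of each gene (columns) in each of the 17 libraries (rows), as the percentile of that summit in its list, with grey where there was no summit. KMT2D, EP300, CREBBP and HDAC2 carry H3K27ac, HNRNPU and POLIIS2P in every library of these antibodies, while KMT2C and KDM5B are grey in all 12 histone libraries.

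KMT2C, at chr7:152134925-152436003 the longest of the 9 genes with 301.1 kb, had the histone sites common to all libraries far inside the gene. Of 30 H3K4me1 sites, each a cluster of summits of the 6 libraries no more than 250 bp from the next, 5 were present in all 6 libraries. They lay at +24.41, +27.50, +41.61, +99.02 and +173.87 kb from the start. Nearer the start, H3K4me1 sites at +2.92, +4.48 and +7.03 kb were each held by 3 shHNRNPU and 2 shLUC libraries. At +2.92 kb shHNRNPU was lower without overlap, at 0, 45.5, 35.1 and 56.7 against 63.7 and 71.8. The difference was −33.4 points (exact permutation test, two-sided, p = 0.2). At +4.48 and +7.03 kb the groups overlapped. The highest H3K4me1 summit of the window was at 83.2, 90.2, 83.2 and 90.1 in shHNRNPU and at 82.3 and 81.1 in shLUC libraries. The groups did not overlap, with a difference of 4.99 percentile points (exact permutation test over 15 assignments, two-sided, p = 0.133). As labelled, shLUC was at 65.5 and 88.1 and the groups overlapped. None of these 5 sites was apart between the groups, and the library maxima came from different sites, namely +99.02 kb in 3 libraries, +27.50 kb in 2 and +41.61 kb in 1. In H3K27ac, 3, 2, 2 and 2 of the window's summits in shHNRNPU were among the 20000 highest of their list, against 0 and 1 in shLUC (exact p = 0.0667, the smallest that this design allows). The difference in this count was 1.75, and −0.25 when summits were instead required to score at least 10. The 20000th summit lay at percentiles 61.3, 50.6, 73.4 and 76.5 in the shHNRNPU and 68.0 and 78.0 in the shLUC lists, so the demand differed between libraries.

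KMT2D, a gene of 41.8 kb at chr12:49018978-49060794, held the strongest H3K4me1 of the group. The site at chr12:49056185-49056202, +4.59 kb inside the gene, was at 99.98, 99.87, 99.77 and 99.82 in the shHNRNPU libraries and at 99.93 and 99.83 in shLUC. The groups overlapped and differed by −0.02 points (exact p = 0.867). A POLIIS2P site lay at the same place, at 94.4 in shHNRNPU#1 and 84.8 and 86.2 in shLUC. The libraries titled H3K4me1 shLUC had no summit there, so that as labelled the groups were apart by 99.9 points (exact p = 0.0667). H3K27ac at the KMT2D start was at 73.9, 91.5, 95.5 and 90.5 against 70.8 and 80.8 (exact p = 0.267). The far end of the window, at +42 kb, is shared with the ends of PRKAG1 and DDN-AS1, and a site at −9.28 kb lies at the end of RHEBL1. Signal at those positions cannot be told apart from that of the neighbours.

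EP300 (chr22:41092592-41180077, + strand) had an H3K27ac summit upstream of its start in every library and a further summit at the start itself in 1 arm. The upstream summits, at chr22:41091802-41091808 and −0.78 kb, were at 98.0, 97.8, 98.8 and 98.0 in shHNRNPU and 98.4 and 99.4 in shLUC libraries, which overlap (exact p = 0.267). At chr22:41092510-41092605, which includes the start site and lies inside the sequence printed above, the shHNRNPU libraries had summits at 26.8, 68.4, 76.5 and 88.9. Neither shLUC library had one, and their nearest H3K27ac summits were 755 and 750 bp from the centre of the site. The lists give no peak widths, so whether the upstream shLUC peaks reach the start is unknown. By peak names it was the only 1 of 163 H3K27ac sites of the 9 genes found in all 4 shHNRNPU and no shLUC library, against 0.227% of sites genome-wide. No H3K27ac site of these genes was found in both shLUC and in no shHNRNPU library (1.93% genome-wide). As labelled the EP300 start site was also without a shLUC summit, since no H3K4me1 library of any arm had one there, so the values at this site are the same under both namings. MIR1281 ends within 1 kb of both positions. H3K4me1 was +2.81 kb inside the gene, at 80.9, 61.0, 63.7 and 86.6 in shHNRNPU and 77.5 and 88.4 in shLUC (exact p = 0.4).

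CREBBP (chr16:3725054-3880713, − strand) held its H3K4me1 in the gene body. Its 38 H3K4me1 sites included 7 present in all 6 libraries, all between +16.88 and +82.61 kb. The site at +23.76 kb, chr16:3856953-3856955, was at 99.5, 97.1, 94.7 and 93.5 in shHNRNPU and at 96.0 and 97.2 in shLUC, with overlapping groups. The site at +18.69 kb, chr16:3861985-3862038, was higher in every shHNRNPU library, at 88.3, 95.6, 90.9 and 91.4 against 63.3 and 77.4. The difference of 21.2 points had an exact p of 0.0667, and 6.85% of the sites held by all 6 libraries genome-wide were higher without overlap. The libraries titled H3K27ac shLUC are the ones compared here, and those titled H3K4me1 shLUC had no summit at the site. The count of CREBBP summits among the 20000 highest was 3 in each shHNRNPU and 2 in each shLUC library. At the start, H3K27ac was at 73.4, 70.2, 83.8 and 96.3 in shHNRNPU and 80.2 and 95.8 in shLUC cells, with no separation (exact p = 0.6).

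**Figure D2:**
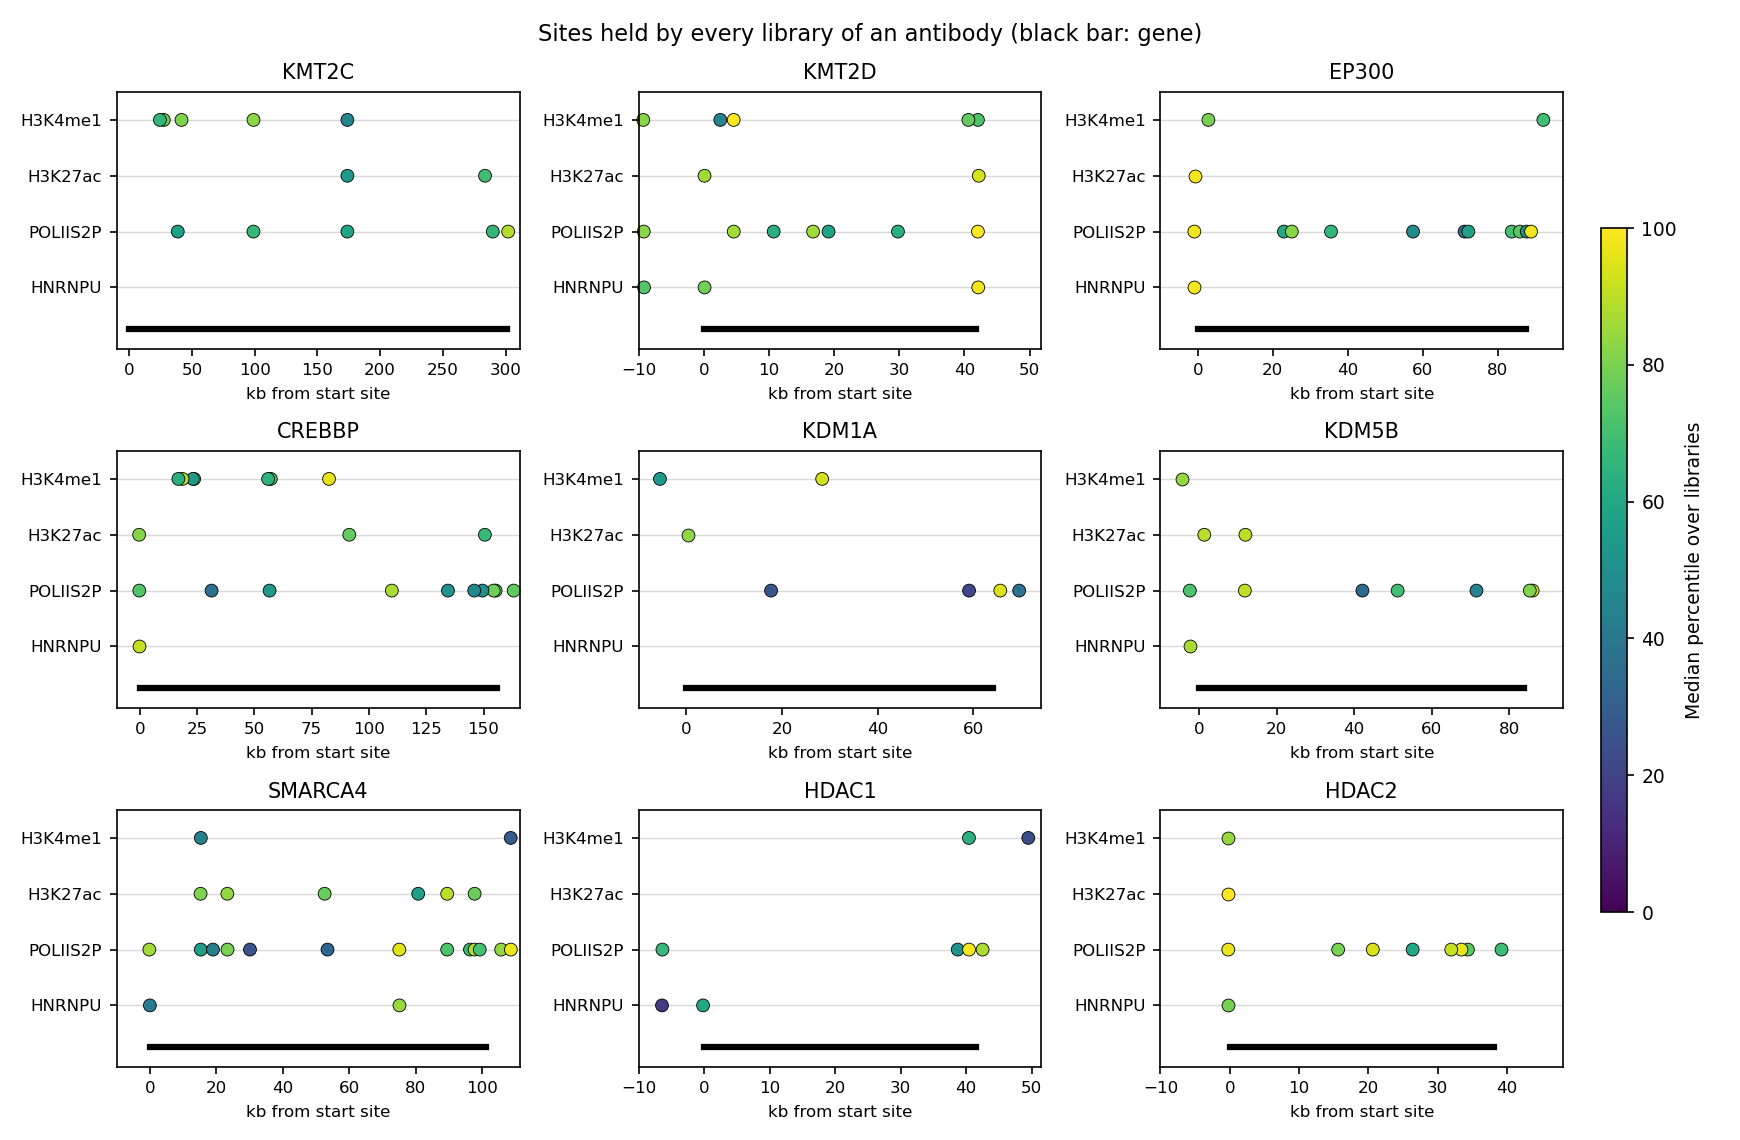
Positions of the sites present in every library of an antibody along each gene, with the distance from the start site in kb on the horizontal axis, 1 row per antibody and the colour giving the median percentile over the libraries. H3K4me1 sites lie inside CREBBP, KMT2C and KMT2D, while the H3K27ac sites of EP300 and HDAC2 lie at the start with HNRNPU and POLIIS2P.

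KDM1A, the H3K4 demethylase of the CoREST complex at chr1:23019468-23083689, had 1 site of each mark that was held by all 6 libraries and lower in shHNRNPU cells without overlap. At its start, chr1:23019701-23020035, H3K27ac was at 77.8, 47.8, 79.3 and 87.6 in shHNRNPU and at 94.8 and 92.1 in shLUC libraries. The groups did not overlap, the difference was −20.3 points (exact p = 0.2), and 11.8% of 9953 start sites with a summit were lower in the same way and 0.733% higher (12.5% in all). The lowest value came from shHNRNPU#1 repeat 2, the shortest H3K27ac list. For the whole window the difference was −15.7 points, and −8.92 without that library. The shHNRNPU window maxima came from −5.55 kb, from +69.44 kb past the gene end and from the start, and the shLUC maxima from the start. As labelled, shLUC was at 37.9 and 0 within 1 kb of the start, and shHNRNPU was the higher group, as at 21.5% of start sites under that naming. H3K4me1 at +28.38 kb, chr1:23047839-23047847, was at 91.5, 88.8, 89.7 and 95.1 in shHNRNPU against 98.1 and 97.2 in shLUC cells, a difference of −6.40 points (exact p = 0.0667). In the libraries titled H3K4me1 shLUC this site had no summit, so as labelled shHNRNPU was higher. Other sites of the gene went the other way by peak names, with H3K4me1 within 1 kb of the start at 19.3 to 71.2 in shHNRNPU against 37.9 and 0 (exact p = 0.467) and H3K27ac at −5.55 kb at 35.5 to 85.1 against 0 and 52.4 (exact p = 0.333), both with overlap.

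KDM5B (chr1:202724495-202808421, − strand) showed the opposite order for H3K27ac inside the gene. The site at +11.93 kb, chr1:202796359-202796835, was at 92.3, 88.5, 90.5 and 96.9 in shHNRNPU and at 73.0 and 76.3 in shLUC libraries. The difference was 17.4 points with an exact p of 0.0667, and 3.76% of H3K27ac sites held by all 6 libraries were higher without overlap. As labelled, shLUC was at 71.5 and 84.4, below every shHNRNPU library, but these 2 lists have H3K4me1 peak names. The pseudogene SLC25A39P1 ends within 1 kb of the site. H3K4me1 at the same position was at 58.2, 65.0, 86.9 and 82.0 against 71.5 and 84.4, so the groups overlapped, and POLIIS2P was at 89.9 against 90.3 and 89.8. At +1.32 kb, H3K27ac was at 90.6, 85.6, 94.3 and 87.9 in shHNRNPU and 84.1 and 94.1 in shLUC (exact p = 0.867), with overlap. As labelled, no shLUC library had a summit at +1.32 kb and shHNRNPU was higher there too. The difference between the 2 sites was not tested. Upstream at −4.32 kb, within 1 kb of an end of PCAT6, H3K4me1 was at 82.9 to 89.8 against 81.9 and 82.3 (exact p = 0.133).

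**Figure D3:**
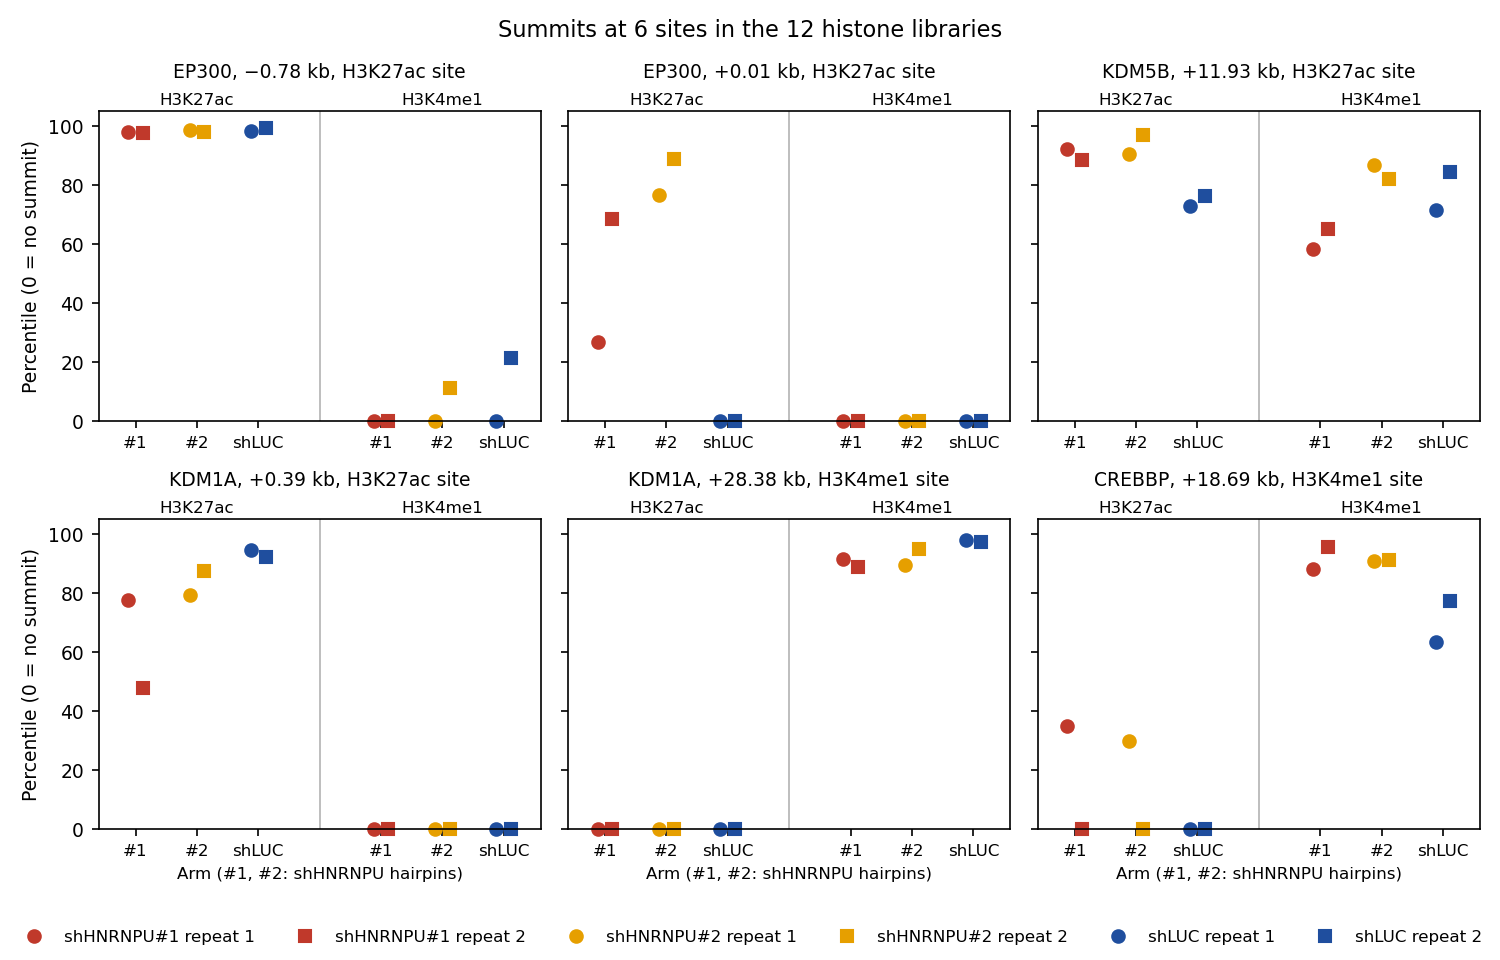
Percentile of the highest summit at 6 sites (panels) in the 12 histone libraries, with H3K27ac left and H3K4me1 right of the grey line and 0 for no summit. The EP300 start site has H3K27ac summits in the 4 shHNRNPU libraries only, and the KDM5B site at +11.93 kb is above both shLUC libraries in all 4.

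HDAC1 (chr1:32292083-32333626, + strand) and HDAC2 (chr6:113933028-113971148, − strand), which often sit in the same complexes, were marked very differently. HDAC2 had its H3K27ac within the printed promoter in all libraries, as given above, with a difference of 0.07 points between groups (exact p = 0.267). HDAC1 had no H3K27ac summit within 1 kb of its start, and none of its 8 H3K27ac sites was present in all 6 libraries. Its highest H3K27ac summit ranged from 25.3 to 75.4 in shHNRNPU, with 75.4, 25.3, 36.8 and 74.7, and was at 84.1 and 45.1 in shLUC (exact p = 0.467). These came from different sites. Both shLUC values and the 74.7 lay at −6.32 kb, within 1 kb of an end of LCK, from whose signal they cannot be told apart. The others lay at +40.53 and +17.10 kb. The strongest H3K4me1 site of HDAC1 that all libraries shared lay at +40.45 kb near its far end, at 62.7, 60.6, 68.7 and 59.3 against 65.2 and 77.0 (exact p = 0.2). POLIIS2P had its strongest HDAC1 summit at nearly the same place, +40.46 kb, at 96.8 in shHNRNPU#1 and 98.8 and 98.9 in shLUC.

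SMARCA4 (chr19:10961030-11062273, + strand) had the most acetylated sites, with 6 of 34 H3K27ac sites in all 6 libraries, none of them at the first start. The strongest lay at +89.44 kb, chr19:11050352-11050659, at 93.6, 94.0, 89.0 and 90.2 in shHNRNPU and 87.8 and 89.2 in shLUC (exact p = 0.2). The site at +23.27 kb, chr19:10984161-10984378, begins just past the second RefSeq start shown above. It was lower in shHNRNPU libraries, at 81.4, 37.9, 86.5 and 62.1 against 88.8 and 93.8 (exact p = 0.133), and 11% of H3K27ac sites in all 6 libraries were lower without overlap. As labelled, shLUC was at 0 and 8.48 there and the order reversed. Other H3K27ac sites, absent from some shHNRNPU libraries, were also lower without overlap by peak names. At +28.10 kb shHNRNPU was at 73.7, 48.6, 0 and 0 against 76.4 and 87.1 (exact p = 0.133). At +105.69 kb, past the gene end, shHNRNPU was at 27.2, 0, 4.15 and 0 against 71.4 and 61.8 (exact p = 0.0667). H3K4me1 of SMARCA4 had 2 sites in all 6 libraries. It was weak, with the highest summit of the window at 45.1 to 68.4 in shHNRNPU and at 62.4 and 38.4 in shLUC. At +15.30 kb it was at 50.7, 45.1, 56.9 and 41.2 in shHNRNPU and 25.4 and 38.4 in shLUC (exact p = 0.0667), and as labelled shLUC was at 87.8 and 83.8 and thus above shHNRNPU. At +20.19 kb and +89.44 kb H3K4me1 was found in all 4 shHNRNPU and no shLUC library, at 30.6 to 38.8 and 0.338 to 30.2, and at +89.92 kb in both shLUC libraries alone, at 29.1 and 19.2. The sites at +89.44 kb and +89.92 kb lie less than 500 bp apart and form 1 site of both arms when summits up to 500 bp apart are joined. With a CREBBP site at +11.96 kb, at 1.66 and 28.6 in shLUC alone, these were the 4 H3K4me1 sites out of 145 that all libraries of 1 arm and none of the other held, against 0.577% of sites for shHNRNPU and 1.28% for shLUC genome-wide.

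Across the 9 genes the highest H3K4me1 summit was above shLUC without overlap for KMT2C and CREBBP and below for KDM1A, which is 3 of 9 against 14.7% of 18505 genes (6.68% higher and 8% lower). CREBBP was at 97.6 to 99.5 against 96.0 and 97.2 (exact p = 0.0667), with the maximum drawn from +23.76 kb in some libraries and +82.61 kb in others. For H3K27ac only KDM1A was apart, 1 of 9 against 13.4% of 18003 genes, of which 11.3% were lower and 2.09% higher. The median difference of the 9 genes was −0.02 points for H3K4me1 and 0.07 for H3K27ac, beside −0.23 and −3.68 over all genes. Strong summits, those among the 20000 highest of a list, set apart CREBBP in H3K4me1 (1 of the 6 genes with any, against 4.08% of all genes, 1.76% higher and 2.31% lower) and KMT2C in H3K27ac (1 of 9, against 3.98%, 1.52% higher and 2.46% lower). The 20000th summit lay at percentiles 86.4 to 90.7 in the H3K4me1 lists but 50.6 to 78.0 in the shorter H3K27ac lists, where strong is a weaker demand. Site by site, 27 of 145 H3K4me1 sites were held by all 6 libraries (25.4% genome-wide), of which 3 were higher and 2 lower without overlap, against 15.3% of such sites in all and 8.44% lower. Of 163 H3K27ac sites, 18 were held by all 6 (7.66% genome-wide), of which 1 was higher and 2 lower, against 14.8% in all.

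The naming of the shLUC libraries decided most of these counts. By peak names, 25.4% of H3K4me1 and 7.66% of H3K27ac sites genome-wide were held by all 6 libraries, against 5.51% and 3.53% as labelled. Which naming is right was not tested. As labelled, 2 genes were higher and 3 lower in their highest H3K4me1 summit, against 62.4% of all genes (39.6% higher and 22.8% lower). In H3K27ac 4 were higher and 2 lower, against 59.1% (15.4% and 43.7%). Strong summits as labelled set apart 1 higher and 3 lower in H3K4me1, against 41.7% (12.9% and 28.8%), and 5 higher in H3K27ac, against 35.2% (22.8% and 12.4%). CREBBP in H3K4me1 and KDM1A in H3K27ac kept their direction without overlap under both namings, at 9.36 and −19.9 points as labelled, although at the KDM1A start itself the order was the opposite as labelled. These window maxima came from unlike sites. As labelled, the shLUC maxima of KDM1A lay at +28.38 kb and those of CREBBP at +150.60 and −0.24 kb. If the peak names are right, those shLUC lists hold the other mark, so the kept direction adds no support for either difference. Single sites whose groups overlapped by peak names were often apart as labelled. For H3K27ac, shLUC was then at 0 and 0 at the KMT2D start, 0 and 13.8 at the CREBBP start, 0 and 21.5 at −0.78 kb of EP300, 29.1 and 0 at +89.44 kb of SMARCA4 and 95.9 and 80.3 at the HDAC2 start, each below all 4 shHNRNPU libraries (exact p = 0.0667 for each). For H3K4me1 at +2.81 kb of EP300 it was at 0 and 0. No p-value of 4 libraries against 2 can fall below 0.0667, so none of these differences can pass 0.05.

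**Figure D4:**
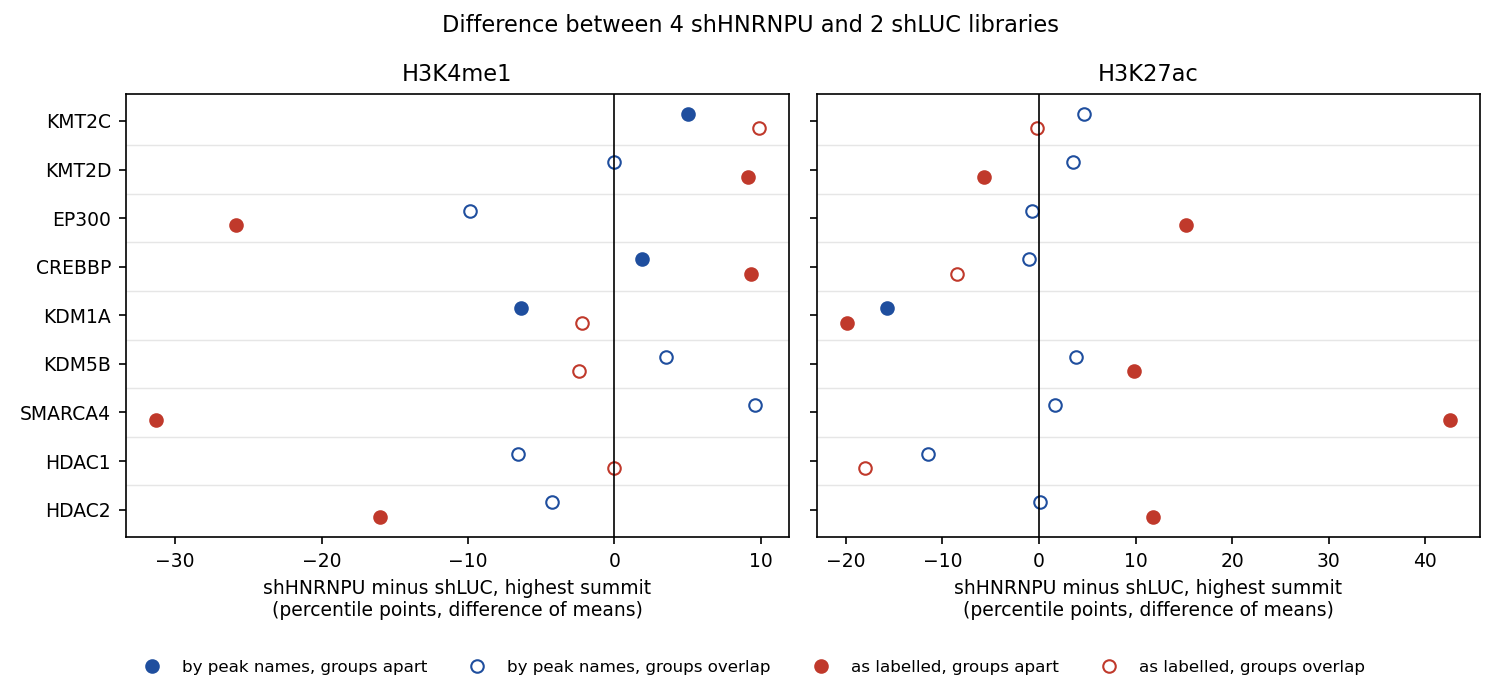
Difference of mean highest-summit percentile between the 4 shHNRNPU and the 2 shLUC libraries for each gene and histone mark, with shLUC antibodies by peak names (blue) or as labelled (red), and filled points where the groups do not overlap. By peak names 3 genes are filled in H3K4me1 and 1 in H3K27ac, against 5 and 6 as labelled.

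Pooled over the 9 genes, the windows carried more strong POLIIS2P and H3K27ac summits and fewer strong H3K4me1 summits per length than protein-coding genes at large. Per 10 kb, the 9 genes together had 0.292 to 0.347 strong POLIIS2P summits over the 3 libraries, against 0.168 to 0.170 for all genes. H3K27ac was at 0.146 to 0.247 against 0.116 to 0.123, and H3K4me1 at 0.037 to 0.055 against 0.099 to 0.101. SMARCA4 alone held 9, 6, 6 and 5 of the 27, 20, 23 and 21 strong H3K27ac summits in shHNRNPU. In shLUC it held 8 of 21 and 7 of 16, so the pooled H3K27ac excess owed much to 1 gene and need not hold for the others. CREBBP held 3 of the 6 strong H3K4me1 summits in each shHNRNPU list, and 2 of 5 and 2 of 4 in shLUC. KMT2C, the longest window, held 0 or 1. HNRNPU was at 0.091 and 0.119 against 0.134. Each member is longer than the median gene (median 83.9 kb against 24.1 kb), which raises the chance that a window holds some strong summit, and for this reason levels are compared per length.

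**Figure D5:**
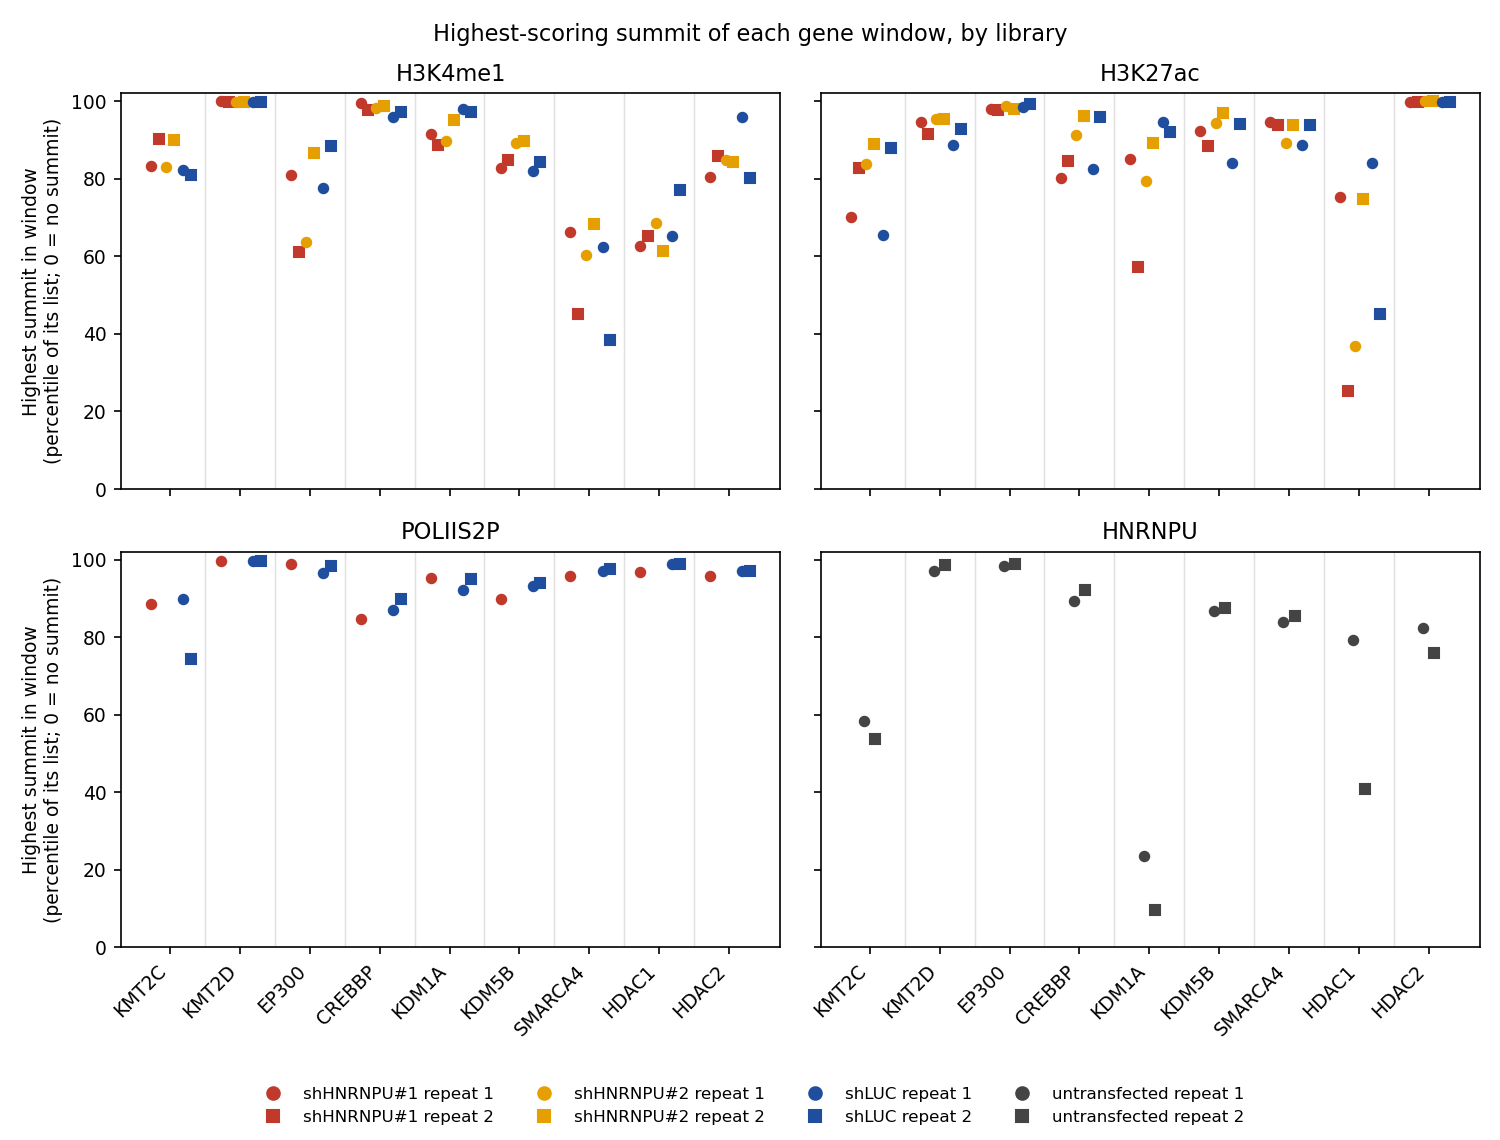
Highest summit of each gene window in every library, as the percentile of its list, with 1 panel per antibody, colours for the shRNA and shapes for the repeat. HDAC2 and EP300 sit near the top for H3K27ac in all 6 libraries and KMT2D for H3K4me1, while HDAC1 spans 25.3 to 84.1 in H3K27ac.

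HNRNPU sites, defined as positions where both HNRNPU libraries had a summit no more than 250 bp apart, lay in the windows of 7 of the 9 genes, with 11 sites in all, against 63.3% of protein-coding genes. That share is not matched for gene length, and each member is longer than the median gene. KMT2C and KDM1A had none. Within 1 kb of the start there was a site in KMT2D, EP300, CREBBP, SMARCA4, HDAC1 and HDAC2, 6 of 9 against 42.9%. EP300 had the strongest of these, at 98.2 and 98.8 in the 2 HNRNPU libraries, and KMT2D had a site of 97.1 and 98.5 at the far end that it shares with its neighbours. Sites at −6426 bp of HDAC1, −2401 bp of KDM5B and −9169 bp of KMT2D lay near ends of LCK, PCAT6 and RHEBL1. The EP300 summit lay at chr22:41091655, −937 bp from the start, on the same base in both HNRNPU and all 3 POLIIS2P libraries, which held for 0.192% of HNRNPU sites. CREBBP had its site at −229 bp, at 89.4 and 92.0. Of the 11 sites, 9 had POLIIS2P within 500 bp in all 3 libraries (64.2% of all HNRNPU sites), 5 had H3K27ac in all 6 (32.8%) and 3 had H3K4me1 in all 6 (66%). HDAC1 had HNRNPU at −154 bp, at 79.3 and 40.7, without an H3K27ac summit within 500 bp.

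POLIIS2P could be compared only as 1 shHNRNPU#1 library beside 2 shLUC libraries, with no test. The highest summit lay outside the shLUC range for 8 of 9 genes, against 71.2% of all genes, with 3 higher (32%) and 5 lower (39.3%). EP300 was at 98.7 against 96.6 and 98.2 and KDM1A at 95.4 against 92.0 and 94.9, while KMT2D, at 99.59 against 99.59 and 99.53, is counted as outside only by a difference beyond these digits. CREBBP was at 84.7 against 86.9 and 89.8, KDM5B at 89.9 against 93.2 and 93.8, SMARCA4 at 95.6 against 97.1 and 97.4, HDAC1 at 96.8 against 98.8 and 98.9, and HDAC2 at 95.8 against 97.0 and 97.1. The mean gaps of these 8 genes were all under 4 points, and arm and library cannot be told apart in them. Several summits held by all 3 libraries lay at or past the far end of the gene, at +65.62 kb in KDM1A, +86.03 kb in KDM5B, +88.94 kb in EP300 and +302.07 kb in KMT2C.

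Among 97 further genes of the same machinery (other H3K4 methyltransferase complex subunits, acetyltransferases, acetyl-lysine readers, demethylases, BAF subunits and deacetylase complex subunits), 9 were higher and 4 lower in their highest H3K4me1 summit, and 1 was higher and 12 lower in H3K27ac. Both sums are 13.4% of the list, beside 14.7% of all genes in H3K4me1 (6.68% higher and 8% lower) and 13.4% in H3K27ac (2.09% and 11.3%), so the list lay near the background. In the BAF list 2 of 16 genes were higher and 2 lower in H3K4me1, and 1 higher and 3 lower in H3K27ac. None of the 13 acetyltransferases and partners was apart in H3K4me1, and 2 were lower in H3K27ac. The widest H3K27ac gaps were in KAT2B, an acetyltransferase of histone H3, at 9.73 to 44.1 in shHNRNPU against 82.6 and 67.3 (exact p = 0.0667), and in MEN1, a subunit of the KMT2A and KMT2B complexes, at 0 to 36.7 against 57.8 and 49.1 (exact p = 0.133). The widest H3K4me1 gaps were in BRD8, a bromodomain protein of the NuA4/TIP60 complex, at 12.9 to 62.2 against 10.9 and 11.1 (exact p = 0.133), and in DPY30, a core subunit of all COMPASS-like complexes, at 70.8 to 86.4 against 69.2 and 27.4 (exact p = 0.0667). As labelled, 63.9% of the list was apart in H3K4me1 and 57.7% in H3K27ac, beside 62.4% and 59.1% of all genes.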

How the data were processed

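CUT&Tag libraries of H1 cells were compared from the deposited summit lists, 1 per library. Per the submitters' processing notes the authors used cutadapt, Bowtie2, SAMtools, MACS2, deepTools and hg38. Their order, versions and settings are not given in the sources used here. The deposited scores have the layout of MACS2 summit files and were read as −log10 of a p-value or q-value. The lowest are 2.00 in the histone lists and 1.30 in the others, so levels are not compared between antibodies. A further deposited table of 48095 HNRNPU intervals holds 1 score throughout and gave positions for an alternative only. Because scores rise with depth, which was unknown, each was turned into its percentile within its list (ties at their mean rank), and a strong summit was one of the 20000 highest. The percentile of a highest summit still rose with list length. Over all genes its median in H3K27ac was 55.2 in the shortest list (shHNRNPU#1 repeat 2) and 82.3 in the longest (shLUC repeat 2). How far this entered the differences between arms was not tested. A percentile orders peaks within a list and is not an amount of a mark.

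Genes, start sites and promoters came from RefSeq (GRCh38.p14), which gives no exons here, so gene body sites were not split into exon and intron. Groups and repeat numbers follow the titles, and the antibody of the 4 shLUC histone libraries follows the peak names. Differences were tested per gene or site with the two-sided exact permutation test over 15 assignments. A feature counts as apart when the 2 groups do not overlap. The percentages beside counts are the share of all protein-coding genes or sites so called. All 9 members are named, other genes where they end within 1 kb of a summit in a member window, HNRNPU, and from the list of 97 genes the 2 with the widest gap per mark. The pluripotency genes, the start-site measure and the single sites described were chosen after the data were seen. The members and lists were chosen with earlier results of these data known. The functions were tested on simulated data. Python 3.11.15, pandas 2.3.3, NumPy 2.4.6 and SciPy 1.17.1 were used. Alternatives were the titles' antibodies, 1 kb flanks, a score of at least 10, 10000 strong summits, sharing within 100 or 500 bp, each shRNA alone, each library left out and the repeat number as a block.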

Additional observations from a re-analysis of the deposited data

Results flagged for a closer look

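The highest H3K27ac summit in the SMARCA4 window stood apart in 1 of the 4 shHNRNPU libraries. It was at 89.3 in shHNRNPU#2 repeat 1 and at 93.9 to 94.6 in the other 3, and its gap to the nearest was 0.878 of the range, above the 95% critical value of Dixon's test for 4 samples. In all, 18 such groups were examined, and chance flags about 5% of them.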

How the results depend on the processing

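With the antibodies as labelled in the titles, the genes apart between the groups numbered 5 for the highest H3K4me1 summit and 6 for H3K27ac, those apart in strong summits 4 and 5, and the sites held by all libraries of 1 arm and none of the other 37 and 42. By peak names these counts were 3, 1, 1, 1, 4 and 1. The shHNRNPU#1 libraries alone gave 3 genes for the highest H3K27ac summit. The shHNRNPU#2 libraries alone gave 5 for the highest H3K4me1 summit, 4 for the highest H3K27ac summit and 5 for strong H3K27ac summits. For strong summits, counting all deposited summits left 0 genes apart in either mark, and a score of at least 10 or the 10000 highest summits left 0 in H3K27ac. The KMT2C difference in H3K27ac was −0.25 at a score of at least 10.

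Leaving out 1 library at a time gave 3 to 7 genes for the highest H3K4me1 summit, 1 to 2 for strong H3K4me1 summits, 1 to 7 for the highest H3K27ac summit, 1 to 3 for strong H3K27ac summits, 4 to 17 H3K4me1 and 1 to 22 H3K27ac sites of such kind, and 9 for POLIIS2P. By construction fewer libraries overlap less often. The highest of these came without shLUC repeat 1 for the H3K4me1 genes and for both site counts, without shLUC repeat 2 for strong H3K4me1 and the highest H3K27ac summit, and without shHNRNPU#1 repeat 1 for strong H3K27ac summits. The H3K27ac genes also numbered 3 without shHNRNPU#1 repeat 2 or shHNRNPU#2 repeat 1 and 2 without shLUC repeat 1. Strong H3K27ac genes numbered 2 without shHNRNPU#1 repeat 2 or either shLUC library. The H3K4me1 genes numbered 5 without shLUC repeat 2. The H3K4me1 sites numbered 7 without shHNRNPU#1 repeat 2 and 9 without shLUC repeat 2. The H3K27ac sites numbered 10 without shLUC repeat 2, 4 without shHNRNPU#2 repeat 1 and 3 without shHNRNPU#2 repeat 2.

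Whether libraries of the same repeat number were made together is not given in the labels. The differences between repeats of 2 arms correlated at −0.025 to 0.032, which cannot settle it. With the repeat number as a block, where shHNRNPU and shLUC are compared within each number, 4 genes were apart in the highest H3K4me1 summit, 2 in H3K27ac, and 1 in strong summits of each mark, with 0.111 the smallest p of that exact permutation. HNRNPU sites lay in 5 to 9 of the 9 genes over 5 alternatives. Other causes of these shifts were not tested. Unknown depth, 2 control libraries and antibody names that disagree limit every comparison of the arms.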
